A study of Danio rerio with 12 samples.

Results

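The brains of zebrafish that had just lost a fight were compared with the brains of fish that had met no opponent, on 3 arrays of losers and 3 arrays of isolated fish, 6 of the 12 arrays in the series. The losers had fought a real opponent and been beaten. The isolated fish had no social contact. Both groups were adult wild-type fish of the AB strain, housed alone for 5 days beforehand, and whole brains were collected at 30 min. The other 6 arrays, 3 of winners of real fights and 3 of fish that fought their own mirror image, served for the estimate of spread and for the comparisons at the end. Each array is a one-colour Affymetrix zebrafish chip that gives 1 intensity, a brightness on a linear scale, for each of 15502 probe sets after control probe sets are left out. A single gene symbol was available for 10795 of these, which represent 8793 genes. The whole brain was read as 1 tissue, so a difference confined to a small nucleus is diluted by all other cells. It is not stated if RNA from 1 fish or from several was put on an array, and the p-values below therefore measure only the spread between these samples.

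A lost fight is both a bout of intense activity and a social stressor. Active neurons switch on immediate early genes, a fast class that needs no new protein to be transcribed, while the hypothalamus and pituitary drive the release of cortisol, which acts through the glucocorticoid receptor on slower target genes. The genes that fell in losers, and pathways outside the immediate early class, are described in most detail here.

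The loser and isolated arrays differed in more than the fish. The bacterial hybridization controls, labelled RNA added just before hybridization, averaged a log2 intensity of 10.35 ± 0.32 on loser arrays and 9.37 ± 0.12 on isolated arrays (SD, n = 3 each), which was 1.97-fold. The poly-A controls, added before labelling, stood at 7.10 ± 0.13 on loser arrays and 6.68 ± 0.0059 on isolated arrays. Both had an exact permutation p of 0.1, the smallest that 3 arrays against 3 can give. On winner arrays the hybridization controls read 10.76, 10.39 and 10.28, and on mirror arrays 9.33, 9.34 and 9.51. The poly-A controls read 7.14, 7.12 and 7.09 on winner arrays and 6.51, 6.25 and 6.78 on mirror arrays. The median intensity per array was 94.1 to 98.8 in losers and 102.3 to 104.5 in isolated fish. On the log2 scale, loser arrays correlated with each other at 0.960 to 0.964, and isolated arrays with each other at 0.971 to 0.977. Each loser array was nearest to a winner array. Neuronal markers were bright in both groups, with summed intensities of 31342 to 32045 in losers and 26082 to 33237 in isolated fish. Markers of pituitary, retina, skeletal muscle and liver were far dimmer, with sums of at most 875 on any loser or isolated array. The part that the controls play in the differences below was not tested, since their level separates the groups.

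With limma, 88 of the 15502 probe sets, 0.568%, differed between losers and isolated fish at a Benjamini-Hochberg adjusted p under 0.05, and these are the calls referred to throughout. In losers 48 of them were lower (0.31%) and 40 higher (0.258%), and on none of the 88 did the 3 loser arrays overlap the 3 isolated arrays. This balance turned with the scaling, to 13 lower and 47 higher after each array was centred on its median and to 27 lower and 44 higher after quantile normalization. Before any rescaling the median log2 difference over all 15502 probe sets was -0.0074, with 49.1% above 0. The array medians, on which the centring works, differed by -0.093 on the log2 scale. Separation without overlap alone was common, at 15.3% of all probe sets lower in losers and 10.8% higher, and its balance turned too, to 9.37% lower and 17.7% higher after centring. Counted by gene, 36 of 8793 genes fell in losers (0.409%) and 28 rose (0.318%), and a further 19 called probe sets, 11 lower and 8 higher, carry no single gene symbol. In whole-brain RNA, fewer cells of a type and less RNA per cell cannot be told apart. The falls lay between a log2 difference of -0.71 and -2.82, with a median of -1.02, which is shallower than the median of 1.56 for the rises. All log2 differences are losers minus isolated fish unless another pair is named, with SE from the fit and 3 arrays per group.

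The balance of direction varied with brightness. Among the 1938 probe sets of the fifth of 8 brightness classes the median log2 difference was -0.11, and 24.8% were lower in every loser array than in every isolated array, against 7.48% higher. In the brightest class the median was 0.07, with 11.2% lower and 18.2% higher without overlap, and in the dimmest class it was 0.16. The calls also leaned on single arrays. When isolated array 1 or 2 was left out, the count of 88 became 22 or 21, and when loser array 1 or 2 was left out it became 35 or 51. Leaving out mirror array 1, mirror array 3 or winner array 2 gave 39, 47 or 57. The 48 lower probe sets were reduced further, to 2 without isolated array 1 or 2, to 12 when loser array 1 or mirror array 1 was missing, and to 18, 20, 22 and 23 when mirror array 3, loser array 2, isolated array 3 or winner array 2 was missing. They became 73 when loser array 3 was missing. The 40 higher probe sets became 20 or 19 when isolated array 1 or 2 was missing and 23 when loser array 1 was missing. Once the level of the hybridization controls entered the limma fit as a covariate, no probe set was called and 1379 had an unadjusted p under 0.05.

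**Figure D1:**
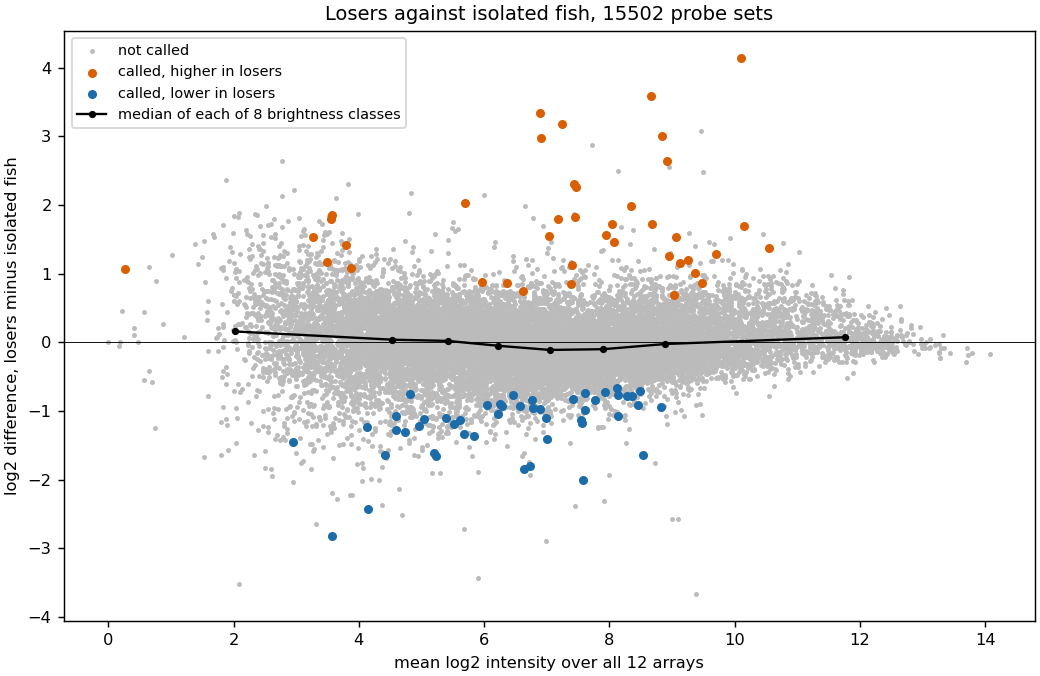
Log2 difference, losers minus isolated fish (vertical axis), against the mean log2 intensity over all 12 arrays (horizontal axis) for 15502 probe sets, with the 48 called lower and the 40 called higher in colour and the median of each of 8 brightness classes as a line. The line dips to -0.11 in the fifth class and stands at 0.07 in the brightest, and the called falls spread over a range of brightness that stops short of the brightest class.

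The falls are described by the known role of each gene, starting with transcription factors of the brain. otpb, which encodes the homeobox factor Orthopedia that specifies neuroendocrine and dopaminergic neurons of the hypothalamus, read 118, 99.6 and 125 on loser arrays, against 284, 221 and 269 on isolated arrays. Every loser value was well under the lowest isolated value, and otpb fell 2.25-fold (log2 -1.17 ± 0.16, adjusted p = 0.0136). It kept its call in 11 of the 12 fits that left out 1 array. zic2a, a zinc finger gene of the forebrain midline, read 66.1, 81.2 and 70.2 in losers and 142, 142 and 136 in isolated fish. The groups were apart on this probe set (log2 -0.96 ± 0.17, adjusted p = 0.0392), whereas a much brighter probe set of zic2a overlapped between groups with a difference of -0.23 ± 0.16. mycn, a growth-promoting factor of neural progenitors, likewise fell on one probe set, with 133, 112 and 162 in losers and 249, 295 and 343 in isolated fish (-1.12 ± 0.20, adjusted p = 0.0413). The other mycn probe set, which is brighter, stood at -0.01 ± 0.17. fli1, an ETS factor of endothelial and blood cells, had 41.3, 37.0 and 24.7 in losers, below all of 98.6, 70.4 and 86.2 in isolated fish (-1.33 ± 0.25, adjusted p = 0.0471), while its other probe set stood at 0.11 ± 0.34. Thus for zic2a, mycn and fli1 the call rests on 1 of a pair of probe sets, and for otpb on the only one measured.

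Genes next to otpb in the hypothalamic list came close to the threshold without passing it. nkx2.1, a homeobox gene of the ventral forebrain and hypothalamus, read 18.04, 21.2 and 26.2 in losers, against 43.8, 39.9 and 46.5 in isolated fish (-1.01 ± 0.19, adjusted p = 0.0504). isl1a, a LIM homeobox gene of several neuron classes, read 19.2, 30.8 and 43.5 in losers and 74.8, 69.3 and 76.7 in isolated fish (-1.32 ± 0.27, adjusted p = 0.0619), with a brighter probe set at -0.60 ± 0.18. Neither gene overlapped between the groups. Of the 31 hypothalamic neuropeptides and their factors, otpb alone passed the test, 7 were lower without overlap (22.6%) and 1 higher (3.23%), where 18.3% of all genes were lower and 9.88% higher. The list median was -0.09 and the median of all genes -0.05, and after centring the list stood at 0.00, and without isolated array 1 at -0.01. The other members apart between the groups were hmx3a, dlx2a, gnrh3 and dlx5a on the lower side and arnt2 on the higher, none of them called. The isotocin gene oxt read 4068, 2705 and 1013 in losers and 2306, 2405 and 2673 in isolated fish, and the vasotocin gene avp stood at 0.19 ± 0.37, both with overlap. These 2 hormone genes were picked after their values were seen. For the 93 regional homeobox factors, a list that includes otpb, nkx2.1 and isl1a, the median was -0.10, or -0.17 without loser array 3, with 23.7% lower and 11.8% higher without overlap. After centring, the homeobox median was -0.0055.

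Among genes of RNA handling, 2 splicing factors that act near the same end of the intron were lower. sf3a3, a subunit of the particle that recognises the branch point, read 181, 179 and 213 on loser arrays and 369, 442 and 391 on isolated arrays. u2af1, the small subunit of the factor that binds the end of the intron, read 125, 154 and 128 in losers and 276, 273 and 257 in isolated fish. In each case the highest loser value was far below the lowest isolated value. sf3a3 fell by 1.07 ± 0.19 (adjusted p = 0.0392) and u2af1 by 0.99 ± 0.17 (adjusted p = 0.0356) on the log2 scale. These were the only calls among 107 splicing factors, whose median was 0.04 and turned to -0.06 without isolated array 1. Without overlap 21.5% were lower and 13.1% higher, against 18.3% lower and 9.88% higher among all genes. The dim ptbp1a, a repressor of neuronal exons, stood at -1.39 ± 0.27 (adjusted p = 0.0532). A probe set is called dim here where its mean log2 intensity over all arrays was under 5.02, as for the lowest 25%. Also lower were pop5 (-0.93 ± 0.17), a subunit of the RNase P complex that matures transfer RNA, rlig1 (-0.92 ± 0.15), which in humans encodes an RNA ligase, and cpsf3 (-0.71 ± 0.13), the nuclease that cuts messages before their poly-A tail is added. For cpsf3 the loser arrays read 277, 278 and 287 and the isolated arrays 440, 467 and 465, a small fall with tight replicates that kept its call in 1 of the 12 fits with 1 array left out.

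**Figure D2:**
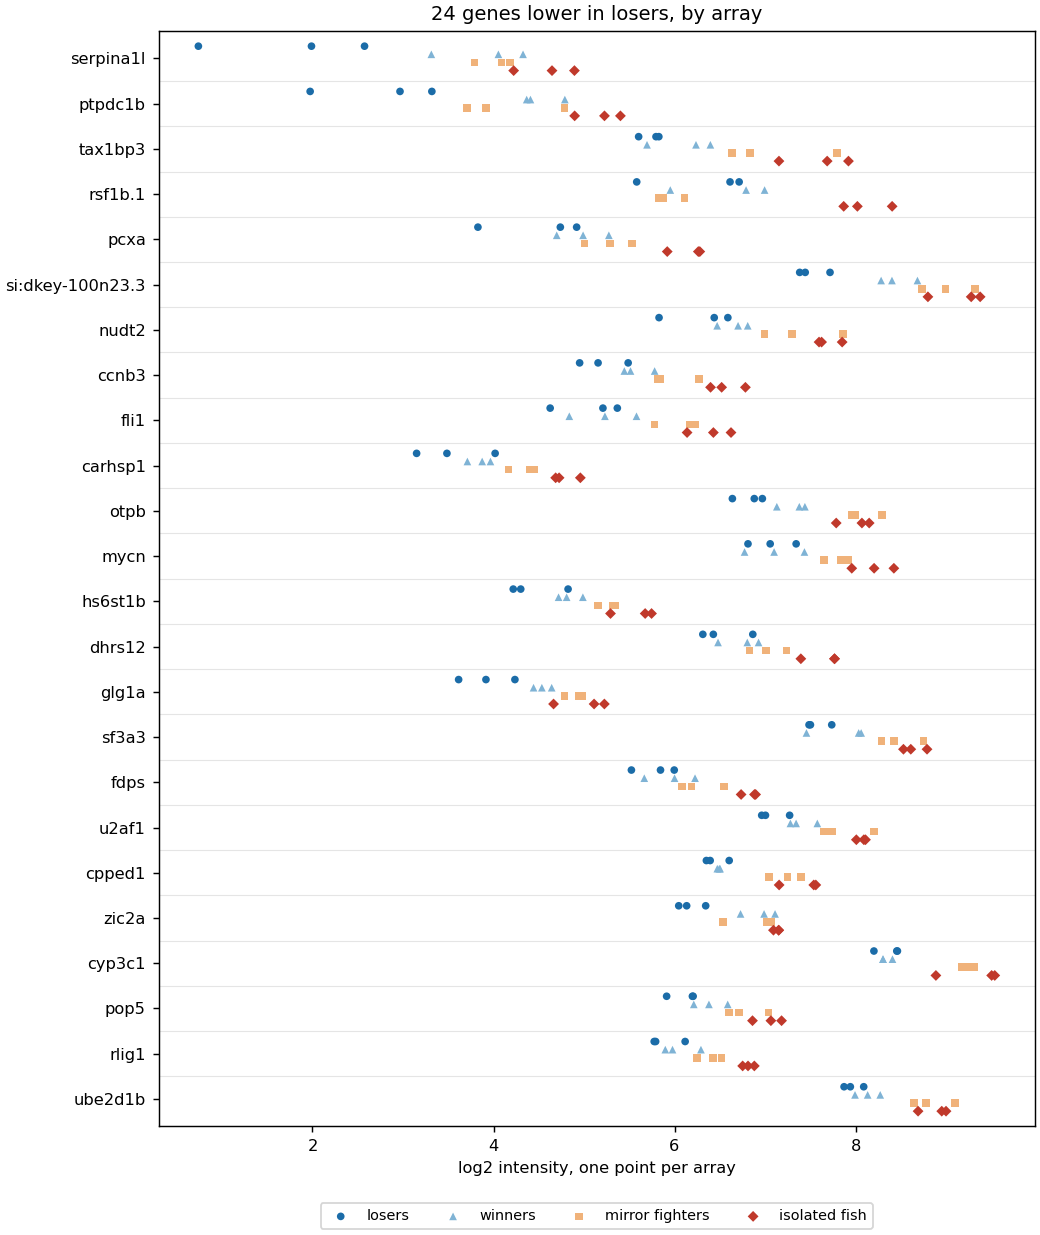
Log2 intensity on each array (horizontal axis) for 24 of the 25 largest of the 36 falls in losers, ordered by size, with losers, winners, mirror fighters and isolated fish drawn from top to bottom within each row. In every row the 3 loser points lie left of the 3 isolated points, which was a condition for naming these genes. Across all 36 falls the mean of the losers was below that of the winners in 34. Since the genes were chosen for low loser values, this count is a description, and limma called no probe set between losers and winners.

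Metabolic genes were also among the falls. pcxa encodes pyruvate carboxylase, which feeds oxaloacetate into the citric acid cycle and into gluconeogenesis and in mammalian brain is mainly an enzyme of astroglia. It read 30.2, 14.2 and 26.7 on loser arrays, against 77.6, 76.8 and 60.5 on isolated arrays, and the groups were apart by 3.16-fold (log2 -1.66 ± 0.28, adjusted p = 0.0356). Of the 30 genes of pyruvate entry, gluconeogenesis and anaplerosis, pcxa was the only call, and the median was 0.02, turning to -0.05 without isolated array 1, to -0.01 without isolated array 3 and to -0.001 without loser array 1. Without overlap 6 of the 30 were lower (20%) and 5 higher (16.7%), where all genes gave 18.3% and 9.88%. got2a, the mitochondrial aspartate aminotransferase that also handles oxaloacetate, read 503, 372 and 318 in losers and 649, 700 and 688 in isolated fish (-0.80 ± 0.22, adjusted p = 0.104). The gluconeogenic pck1, a glucocorticoid target on a dim probe set, stood on the opposite side at 1.61 ± 0.52 (adjusted p = 0.131).

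fdps makes farnesyl pyrophosphate, a branch point of the mevalonate pathway towards cholesterol and prenylated proteins. It read 57.5, 46.0 and 63.8 in losers and 107, 118 and 119 in isolated fish, a fall of 2.07-fold without overlap (-1.05 ± 0.19, adjusted p = 0.0403), and its second probe set stood at -0.80 ± 0.24, also without overlap. msmo1, a later enzyme of the same pathway, read 108, 93.6 and 98.2 in losers and 237, 185 and 209 in isolated fish (-1.07 ± 0.22, adjusted p = 0.0652). The 19 genes of cholesterol and lipid synthesis had a median of -0.11, or -0.17 without isolated array 3, with 4 lower (21.05%) and 1 higher (5.26%) without overlap, against 18.3% and 9.88% of all genes. After centring, this median was -0.014. nudt2, which breaks down the signalling nucleotide diadenosine tetraphosphate, read 56.8, 86.7 and 96.2 in losers and 197, 231 and 193 in isolated fish (-1.41 ± 0.25, adjusted p = 0.0392). It was the only call among 44 purine and pyrimidine genes, which had a median of -0.16. dhrs12, of the short-chain dehydrogenase family, fell by 1.11 ± 0.20, and cyp3c1, a cytochrome P450 gene, by 0.94 ± 0.17 on the log2 scale. For cyp3c1 the loser arrays read 294, 353 and 351 and the isolated arrays 725, 743 and 473, so isolated array 3 stood closest to the losers. Smaller falls were those of hpda (-0.83 ± 0.15), an enzyme of tyrosine breakdown, and selenoh (-0.77 ± 0.14), a selenoprotein of the nucleus.

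The central routes of energy supply held no call. None of 35 glycolysis genes, 21 citric acid cycle genes and 74 subunits of the respiratory chain and ATP synthase passed the test. Among all genes 0.409% were called lower and 0.318% higher. Lists of this size without a call, here and below, are near that share. The median was 0.07 for glycolysis, -0.00093 for the citric acid cycle and 0.0049 for the respiratory chain, and each turned sign under one of 2 rescalings, quantile normalization or centring. Without overlap, 6 glycolysis genes were higher (17.1%, against 9.88% of all genes) and 1 lower (2.86%, against 18.3%), and the smallest p among them belonged to pgk1 (0.44 ± 0.12, adjusted p = 0.1). ogdha, a subunit of the oxoglutarate dehydrogenase of the citric acid cycle, read 545, 492 and 319 in losers and 204, 168 and 251 in isolated fish (1.103 ± 0.26, adjusted p = 0.0809). idh3b, a subunit of isocitrate dehydrogenase in the same cycle, stood on the other side at -0.69 ± 0.20 (adjusted p = 0.115). The other probe set of idh3b pointed the opposite way, however.

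Cell cycle and chromatin genes contributed several falls. ccnb3, a B-type cyclin of dividing cells, read 30.9, 44.9 and 35.6 on loser arrays and 91.8, 84.3 and 110 on isolated arrays. The loser values did not reach the isolated range, and ccnb3 fell 2.58-fold (-1.37 ± 0.19, adjusted p = 0.0140). A second ccnb3 probe set was also called (-1.18 ± 0.21), and the remaining pair stood at -0.09 ± 0.16 and -0.29 ± 0.21. cdt1, which licenses replication origins, read 26.9, 28.9 and 23.3 in losers and 47.2, 47.7 and 52.1 in isolated fish (-0.90 ± 0.18, adjusted p = 0.0619), and the flap nuclease gene fen1 stood at -0.53 ± 0.13 (adjusted p = 0.0890). The 68 cell cycle and DNA replication genes had a median of -0.11, with 19 lower without overlap (27.9%, against 18.3% of all genes) and 6 higher (8.82%, against 9.88%). The corresponding medians were -0.14 in winners and -0.11 in mirror fighters, both against the same isolated arrays. After centring, the median of this list in losers was -0.014.

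rsf1b.1, a chromatin remodelling gene, read 105, 47.9 and 97.9 in losers and 259, 234 and 339 in isolated fish (-1.79 ± 0.33, adjusted p = 0.0468). Mirror fighters, with 69.1, 56.9 and 58.7, were lower still, so here the isolated arrays stood above all other groups. It was the only call among 57 chromatin genes, whose median of 0.04 turned to -0.03 without isolated array 1. Called with smaller differences were msl1b (-0.78 ± 0.15), the scaffold of a histone acetyltransferase complex, vrk1 (-0.83 ± 0.15), a nuclear kinase that acts on chromatin, and phf23b (-0.72 ± 0.13), which encodes a PHD finger protein. The zinc finger gene rlf fell by 0.84 ± 0.13 on the log2 scale, with 152, 178 and 157 in losers and 268, 291 and 310 in isolated fish, and its second probe set stood at -0.64 ± 0.21.

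A group of signalling, ubiquitin and trafficking genes made up most of the rest. tax1bp3, a small PDZ protein that competes with scaffold proteins for their partners, read 56.7, 55.5 and 48.6 in losers and 206, 242 and 142 in isolated fish, 3.59-fold lower in losers (-1.85 ± 0.31, adjusted p = 0.0356). si:dkey-100n23.3, a gene without an annotated role in the tables used, had the smallest adjusted p of all falls. It read 167, 210 and 174 in losers and 664, 620 and 445 in isolated fish (-1.64 ± 0.21, adjusted p = 0.00915) and kept its call in 11 of the 12 fits with 1 array left out. cpped1, a calcineurin-like phosphatase, read 81.7, 84.1 and 97.2 in losers and 186, 189 and 143 in isolated fish (-0.97 ± 0.15, adjusted p = 0.0249). Of the ubiquitin genes, the conjugating enzyme ube2d1b fell by 0.91 ± 0.16, the ligase gene trim47 by 0.90 ± 0.15 and the dim rad23ab, a carrier of ubiquitinated proteins to the proteasome, by 0.76 ± 0.13 on the log2 scale. trappc4, of a complex that tethers vesicles at the Golgi, and washc3, of the WASH complex on endosomes, fell by 0.76 ± 0.13 and 0.74 ± 0.12. hs6st1b, which sulfates heparan chains, read 19.7, 18.6 and 28.3 in losers and 39.2, 51.1 and 53.7 in isolated fish (-1.12 ± 0.19, adjusted p = 0.0347).

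The 2 falls of largest size, serpina1l and ptpdc1b, came from dim probe sets, where small intensities give large ratios. serpina1l, a protease inhibitor related to liver antitrypsin, read 3.97, 1.67 and 5.96 in losers and 18.7, 29.7 and 25.04 in isolated fish (-2.82 ± 0.42, adjusted p = 0.0199). ptpdc1b, of the tyrosine phosphatase family, read 3.93, 7.82 and 9.98 in losers and 29.8, 42.3 and 37.4 in isolated fish (-2.42 ± 0.36, adjusted p = 0.0195). With 32 added to every value before the logarithm, the fit gave differences of -0.65 and -0.80 for them. carhsp1, a cold-shock RNA-binding gene, and glg1a, a Golgi glycoprotein gene, were likewise dim, at -1.24 ± 0.20 and -1.08 ± 0.19. For glg1a the 3 other probe sets stood above 0, between 0.11 and 0.27. None of the 36 falls kept its call in every alternative setting, and 10 kept it in at least 6 of the 12 fits with 1 array left out, while no call changed sign.

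Outside the immediate early list 12 genes rose in losers. tcima, a regulator of transcription and immune responses, read 834, 961 and 639 on loser arrays and 296, 232 and 209 on isolated arrays (1.72 ± 0.20, adjusted p = 0.00463), and a brighter second probe set was also called at 1.38 ± 0.18. plk2b, a polo-like kinase gene that synaptic activity induces in rodents, read 446, 328 and 474 in losers and 164, 113 and 144 in isolated fish (1.57 ± 0.20, adjusted p = 0.00929). In both genes the groups were far apart. mvp, the main protein of vault particles, had 81.2, 93.5 and 104.5 in losers and a wider 13.5, 36.2 and 23.7 in isolated fish (2.03 ± 0.29, adjusted p = 0.0162). The unannotated wu:fj62d01 read 391, 372 and 356 in losers and 95.8, 72.4 and 66.9 in isolated fish (2.27 ± 0.17, adjusted p = 0.000300). fech, ferrochelatase, the last enzyme of haem synthesis, was dim at 25.7, 21.1 and 19.0 in losers and 6.02, 6.0 and 6.79 in isolated fish (1.80 ± 0.23). It was the only call among 27 erythroid and haem genes, whose median of -0.14 turned to 0.03 without loser array 3.

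The remaining rises were smaller or dim. pou5f3, a POU homeobox gene known from the early embryo, read 86.3, 89.7 and 78.0 in losers and 50.3, 49.8 and 39.1 in isolated fish (0.87 ± 0.14, adjusted p = 0.0299). mtpn, the ankyrin-repeat protein myotrophin, rose by 0.87 ± 0.15 on one probe set, with 0.42 ± 0.17 on its brightest probe set and -0.59 ± 0.34 on the other. The deubiquitinase-family gene cyld2 (1.08 ± 0.16), wu:fa03e10 (1.54 ± 0.27) and zgc:66156 (1.41 ± 0.24) were dim. zgc:66156 read 39.6, 25.1 and 22.7 in losers, against 9.67, 9.84 and 12.5 in isolated fish. cela1.5, related to pancreatic elastases, read 2.37, 1.62 and 2.37 in losers and sat at the floor of 1 on all 9 other arrays, so no fold is given. si:dkey-19b23.8 rose by 0.85 ± 0.15.

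**Figure D3:**
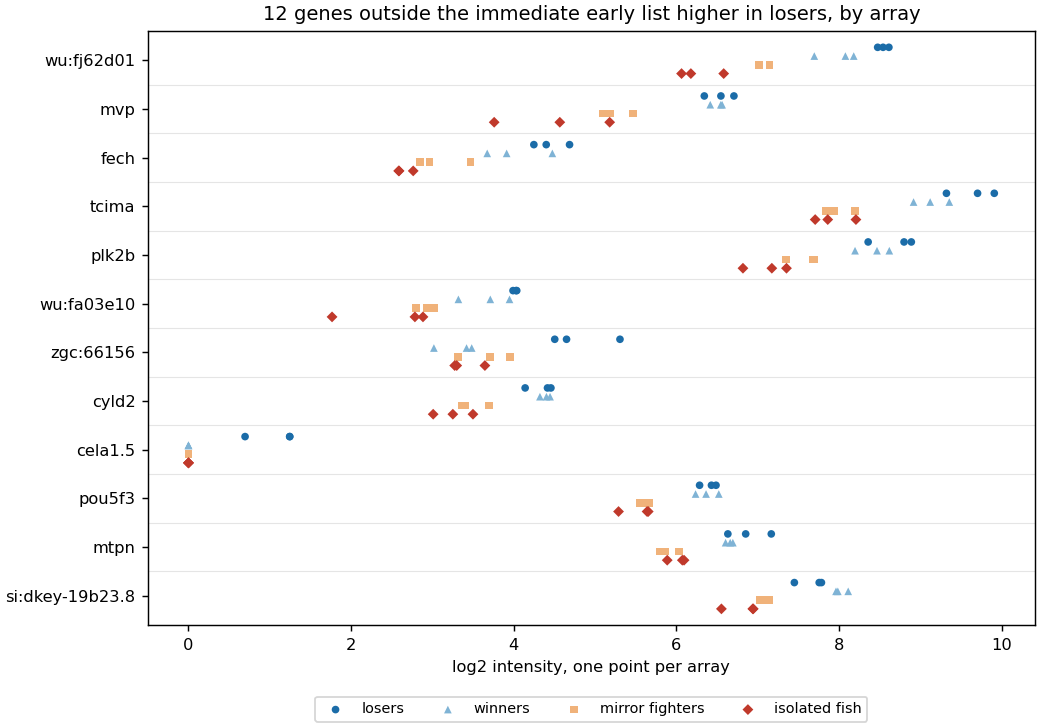
Log2 intensity on each array (horizontal axis) for the 12 genes outside the immediate early list that rose in losers, with losers, winners, mirror fighters and isolated fish drawn from top to bottom within each row. Loser points lie right of isolated points in every row, winner points overlap the losers in most rows, and for zgc:66156 and cela1.5 only the loser points stand apart.

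Immediate early genes supplied the other 16 rises, out of 58 measured members, and none of the 58 was called lower. npas4a, a neuron-specific factor induced by calcium entry, read 4150, 4034 and 3004 in losers and 220, 150 and 277 in isolated fish. Even its lowest loser value was over 10 times the highest isolated one. The nuclear receptor gene nr4a1, the AP-1 member fosab and the zinc finger gene egr4 followed with log2 differences of 3.18, 2.98 and 2.64, and the smallest was that of the neurotrophin gene bdnf at 1.01. pim1, a kinase gene of this list with tight replicates, read 1292, 1280 and 1445 in losers and 476, 567 and 606 in isolated fish (1.29 ± 0.13). The list median was 0.45, with 51.7% of members higher without overlap and 12.1% lower, against 9.88% and 18.3% of all genes.

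The 19 glucocorticoid targets and stress axis genes had the highest median of the 36 lists, 0.71. No member passed the test, and 9 were higher in losers without overlap (47.4%, against 9.88% of all genes) and none lower. nfkbiab, an inhibitor of NF-kB signalling, read 1088, 881 and 1072 in losers and 531, 379 and 469 in isolated fish (1.15 ± 0.30, adjusted p = 0.0958). tsc22d3, a glucocorticoid-induced leucine zipper gene, read 2123, 1848 and 2120 in losers and 1325, 1070 and 1520 in isolated fish (0.65 ± 0.17, adjusted p = 0.0978). fkbp5, a chaperone of the receptor, read 1629, 836 and 1834 in losers and 267, 108 and 503 in isolated fish, and klf9 read 918, 455 and 1339 in losers and 140, 103.7 and 188 in isolated fish. These last 2, picked after their values were seen, were separated by wide margins but spread widely within each group, with adjusted p = 0.127 and 0.108. The brightest probe set of the receptor gene nr3c1 overlapped between groups (-0.11 ± 0.14). The same list had medians of 0.40 in winners and 0.34 in mirror fighters against the shared isolated arrays, and 4 of its members, nfkbiab, cebpd, dusp1 and nfkbiaa, also stand in the immediate early list.

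No gene was called in the lists of ribosomal proteins, proteasome subunits, chaperones, endoplasmic reticulum stress genes or translation and mTOR genes. The called ubiquitin genes described above are not members of these lists. The 72 cytosolic ribosomal proteins had a median of -0.05, the same as all genes, with 51 of 72 below 0 (70.8%, against 55.96% of all genes) and 29.2% lower without overlap, against 18.3% of all genes. The shifts were small, as for rplp2, a stalk protein, with 3922, 3697 and 3762 in losers and 4312, 4365 and 4219 in isolated fish (-0.18 ± 0.11). After centring, the ribosomal median was 0.04. The 48 proteasome subunits had a median of -0.16, with 38 of them below 0 (79.2%, against 55.96% of all genes). Without overlap 16.7% of them were lower and 2.08% higher, against 18.3% and 9.88% of all genes. Against the same isolated arrays the median was -0.17 in winners and 0.05 in mirror fighters. The proteasome median in losers was below 0 under both rescalings, and it was -0.08 without isolated array 2, -0.10 without loser array 3 and -0.27 without isolated array 3. psmd10, an assembly chaperone of the proteasome, had the smallest p of this list, with 87.8, 116 and 101 in losers and 181, 164 and 147 in isolated fish (-0.70 ± 0.17, adjusted p = 0.0869). The 67 heat shock and chaperone genes and the 25 endoplasmic reticulum stress genes had medians of -0.05 and -0.06, both turning sign after centring and the second also without isolated array 2 (0.03), and herpud1, a membrane protein of that stress response, stood at -0.59 ± 0.14. The 66 translation and mTOR genes had a median of -0.06, which turned to 0.03 after centring, led by mlst8, an mTOR subunit, at -0.64 ± 0.14.

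Neuronal gene lists had medians slightly above 0. The 49 synaptic scaffold and adhesion genes had a median of 0.13, the 56 ion channels and transmitter receptors 0.10 and the 44 synaptic vesicle genes 0.10, and of these 3 only the vesicle list turned sign, to -0.02, after quantile normalization. Single arrays moved them, since without isolated array 1 the scaffold median was 0.05 and the vesicle median 0.01, and without loser array 1 the channel median was 0.06. dlg1a, a postsynaptic scaffold gene, read 416, 612 and 490 in losers and 247, 298 and 263 in isolated fish, without overlap (0.90 ± 0.17, adjusted p = 0.0504). rims2a, which primes vesicles at the active zone, read 2901, 3110 and 2731 in losers and 1636, 1649 and 2080 in isolated fish (0.71 ± 0.14, adjusted p = 0.0565). The sodium channel subunit gene scn3b stood at 0.87 ± 0.20. On the lower side were snapin, a SNARE-binding gene, with 140, 134 and 179 in losers and 399, 316 and 350 in isolated fish (-1.24 ± 0.26, adjusted p = 0.0693), and the dynamin gene dnm1a (-1.47 ± 0.34). dnm1a read 176, 78.9 and 171 in losers and 105, 80.4 and 81.8 in mirror fighters, so that loser array 2 was at the level of the mirror arrays. Of the 12 monoamine genes none was called, and the list median of 0.07 turned to -0.01 without loser array 2. Of 32 clock genes none was called either, with nfil3-6, a leucine zipper repressor, closest at 1.05 ± 0.20 (adjusted p = 0.0532), although its other probe set pointed the other way.

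The lists of radial glia, vessels, meninges and immune cells lay below the median of all genes, while the 9 myelin genes, at -0.02, did not. The 38 radial glia, astroglia and progenitor genes had a median of -0.15, with sox3, a progenitor factor, at 373, 380 and 420 in losers and 782, 757 and 608 in isolated fish (-0.86 ± 0.17, adjusted p = 0.0534). The Notch effector her6 stood at -0.69 ± 0.17, with 339, 435 and 440 in losers and 745, 731 and 497 in isolated fish. cyp19a1b, the brain aromatase of radial glia, showed how much the probe set matters. Its dim probe set of smallest p stood at -1.56 ± 0.38. The brightest one stood at -0.14 ± 0.16, with 3689, 3046 and 2834 in losers and 3754, 3949 and 2897 in isolated fish. A further probe set of cyp19a1b was not below 0. Summed over 7 glial markers, intensity was 27538 to 31798 in losers and 28020 to 31128 in isolated fish.

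The 32 endothelium and vessel genes had a median of -0.23, with 28.1% lower and 3.12% higher without overlap, against 18.3% and 9.88% of all genes, and fli1 as the only call. Without loser array 3 this median was -0.12. prox1a, a lymphatic and neuronal homeobox gene, read 49.2, 47.6 and 43.5 in losers and 63.9, 74.2 and 82.0 in isolated fish (-0.64 ± 0.15). Summed over the 6 measured endothelial markers, intensity was 381 to 552 in losers and 588 to 663 in isolated fish, without overlap. These sums include the called fli1, with 41.3, 37.0 and 24.7 in losers and 98.6, 70.4 and 86.2 in isolated fish. With fli1 left out, the sums of losers and isolated fish overlapped. kdrl, the defining receptor, gave most of the signal, with 313, 295 and 213 in losers and 326, 313 and 305 in isolated fish (-0.22, adjusted p = 0.581). Of the 62 meningeal and extracellular matrix genes, whose median was -0.22, the call was zic2a, held in that list as a meningeal marker. Without overlap 16.1% of this list were lower and 6.45% higher, against 18.3% and 9.88% of all genes. timp2b, an inhibitor of matrix proteases, read 48.5, 78.0 and 55.7 in losers and 147, 124 and 122 in isolated fish (-1.13 ± 0.23, adjusted p = 0.0619), and tgfbi, a matrix adhesion protein, stood at -0.95 ± 0.20. Summed over 10 meningeal markers, loser arrays ranged from 1204 to 1543 and isolated arrays from 1368 to 1598. Of these markers 8 were below 0, while the brightest, igfbp5b, stood at 0.23 (adjusted p = 0.390). The part of cell composition in these differences was not tested.

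The immune lists had the lowest medians and the widest spread. The 32 microglia and leukocyte genes stood at -0.35 with 26 below 0 (81.25%). The 23 interferon and antigen presentation genes stood at -0.45 with 19 below 0 (82.6%), against 55.96% of all genes. None of either list was called. Without overlap 12.5% and 0% of these lists were lower and 0% and 4.35% higher, against 18.3% and 9.88% of all genes. Against the same isolated arrays the medians were -1.20 and -0.69 in winners and -0.45 and -0.44 in mirror fighters. In losers the microglial median was 0.03 without loser array 3 and -0.71 without loser array 2. The interferon median in losers was -0.04 without loser array 3 and -0.13 without isolated array 2. Summed over 10 markers, the loser arrays read 7422, 9939 and 4304 and the isolated arrays 10435, 11859 and 4812, so that array 3 of each group was low and the groups overlapped. cxcr4b, a chemokine receptor gene, was nonetheless lower on every loser array, with 34.2, 29.7 and 21.2 in losers and 57.3, 78.9 and 73.9 in isolated fish (-1.32 ± 0.29, adjusted p = 0.0759). ncf1, of the phagocyte oxidase, read 69.7, 53.3 and 24.1 in losers and 151, 173 and 70.0 in isolated fish. On the higher side, mpx of the microglia and leukocyte list read 24.1, 19.21 and 12.04 in losers and 4.04, 4.11 and 10.7 in isolated fish (1.66 ± 0.49, adjusted p = 0.114). This mpx probe set was dim, and of its 3 other probe sets 1 pointed the same way. Also higher was socs1a, an inhibitor of cytokine signalling, with 80.4, 82.5 and 76.7 in losers and 37.2, 56.4 and 26.7 in isolated fish (1.06 ± 0.30, adjusted p = 0.107).

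**Figure D4:**
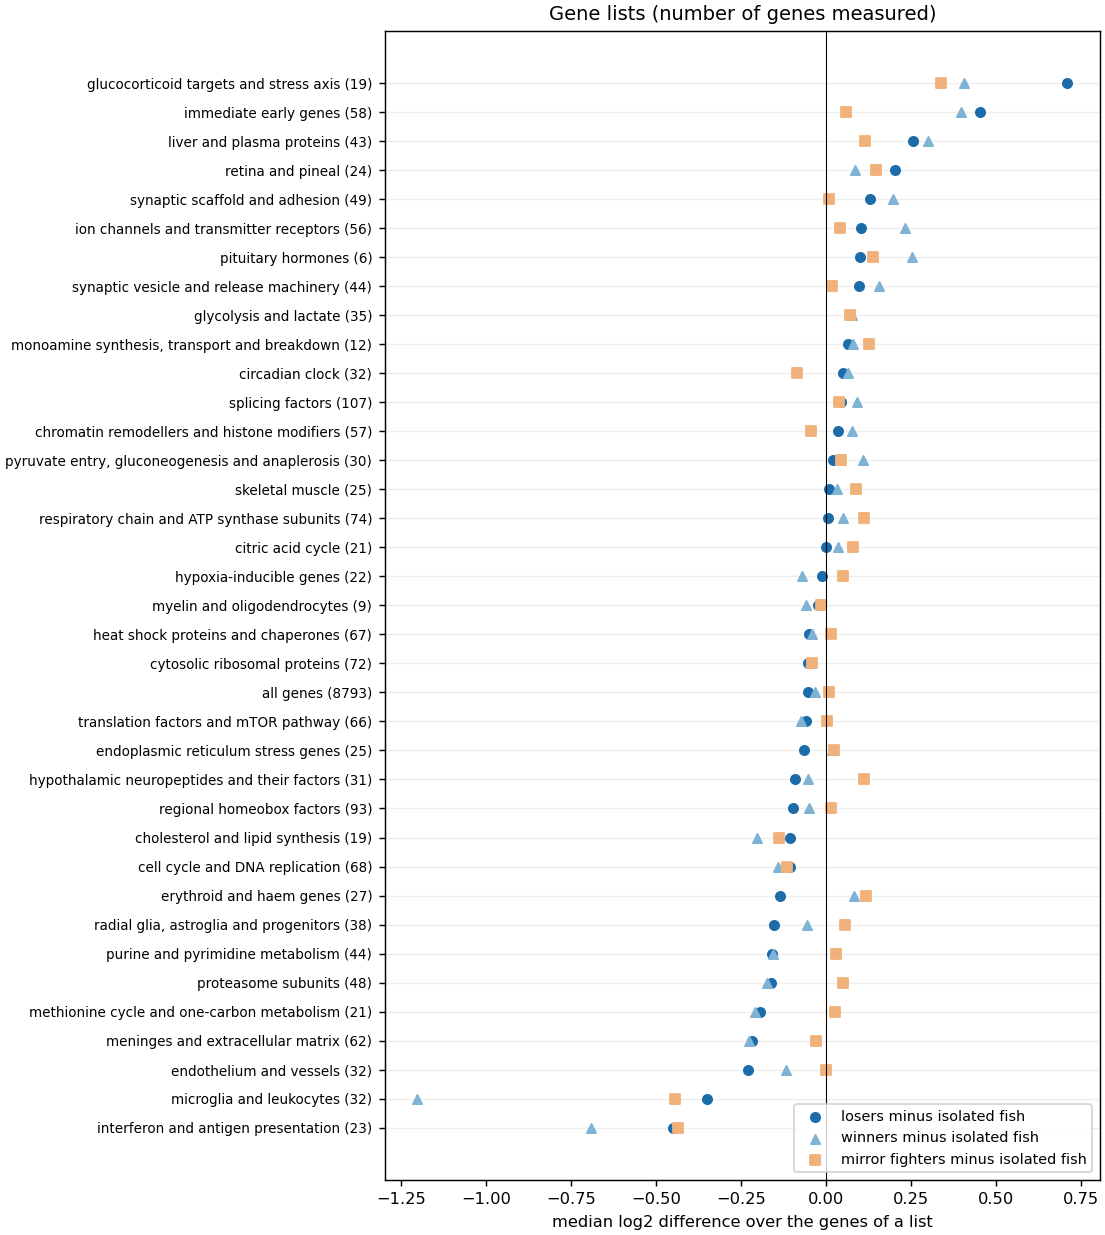
Median log2 difference against isolated fish (horizontal axis) over the measured genes of each of 36 lists and of all 8793 genes, for losers, winners and mirror fighters, which share the 3 isolated arrays. In losers the medians run from -0.45 for interferon genes to 0.71 for glucocorticoid targets, around -0.05 for all genes, and 12 lists change sign in losers under quantile normalization or centring and 13 when 1 array is left out.

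The test of a difference between losers and winners with limma called no probe set, and between 0 and 2 with 1 array left out, while 642 (4.14%) had an unadjusted p under 0.05. Between losers and mirror fighters limma called 27 (0.174%), 22 higher (0.142%) and 5 lower in losers (0.0323%). Without mirror array 2 this count was 0, without loser array 2 or mirror array 1 it was 1, and without isolated array 1 or isolated array 2 it was 10. It was 14 without isolated array 3, 11 without loser array 1 or mirror array 3, 18 without loser array 3, 9 without winner array 2 and 0 once the level of the hybridization controls was a covariate. On these controls the winner arrays stood near the losers and the mirror arrays near the isolated fish. The part of the control level in these counts was not tested further. Of the 36 falls only otpb and si:dkey-100n23.3 were also called lower in losers than in mirror fighters. otpb read 118, 99.6 and 125 in losers and 248, 313 and 255 in mirror fighters (-1.25, adjusted p = 0.0182), with winners at 140, 174 and 166. si:dkey-100n23.3 read 167, 210 and 174 in losers and 509, 640 and 425 in mirror fighters (-1.50, adjusted p = 0.0263), with winners at 311, 338 and 411. In both genes the winner arrays lay between the other groups, above all loser arrays and below all mirror arrays. dlg1a and drg2, a GTP-binding protein gene picked after its values were seen, were called in losers against mirror fighters, at 1.15 and -0.96, without being called against isolated fish. Of the 28 rises 16 were called higher in losers than in mirror fighters. The falls and rises were chosen on the same loser arrays, so their counts against mirror fighters are a description.

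Set against the same isolated arrays, the 36 falls had a median of -1.02 in losers, -0.74 in winners and -0.24 in mirror fighters, and the 28 rises had medians of 1.56 in losers, 1.27 in winners and 0.32 in mirror fighters. Against isolated fish, winners had 38 limma calls (0.245%), 29 higher (0.187%) and 9 lower (0.0581%), and mirror fighters had 0, with 594 probe sets (3.83%) at an unadjusted p under 0.05. Of the 36 falls cpped1 and selenoh were among the winners' calls, and of the 28 rises 21 were. The isolated arrays enter all of these differences, and the genes were chosen in losers, so the order of the medians is a description. For some falls the winners stood nearer to the isolated fish than to the losers. zic2a was at -0.96 in losers and -0.19 in winners, serpina1l at -2.82 in losers and -0.69 in winners, and ptpdc1b at -2.42 in losers and -0.65 in winners, but the adjusted p for losers minus winners was 0.789 in each case. For others both groups stood at like distances from the isolated fish, with mycn at -1.12 in losers and -1.09 in winners, cyp3c1 at -0.94 in losers and -0.97 in winners, and selenoh at -0.77 in losers and -0.81 in winners. Among the rises zgc:66156 was at 1.41 in losers and -0.10 in winners (adjusted p = 0.418 for the difference).

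**Figure D5:**
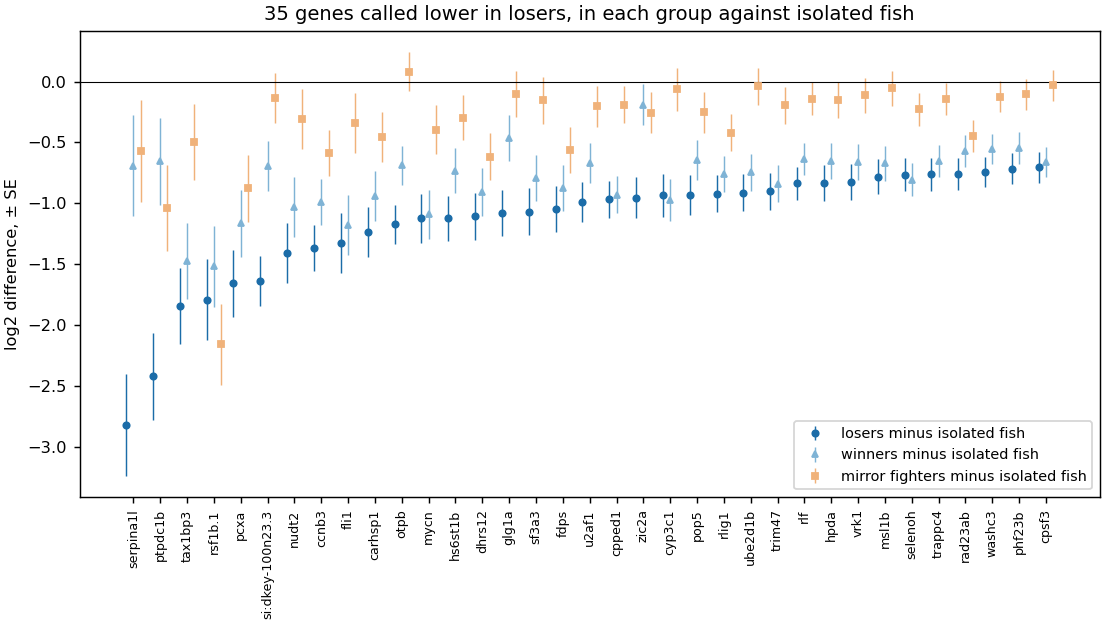
Log2 difference against isolated fish (vertical axis, bars are SE) for 35 of the 36 genes that fell in losers, shown for losers, winners and mirror fighters, which share the 3 isolated arrays. All 35 winner values and 34 of 35 mirror values drawn are below 0, with medians over all 36 falls of -1.02 in losers, -0.74 in winners and -0.24 in mirror fighters, and otpb is the gene whose mirror value lies above 0.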

How the data were processed

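Intensities on a linear scale, 1 per probe set and array, were deposited by the authors, and the summary and normalization method is not given in the sources used here. The submitters' processing notes name Partek 6.6. Amplification and biotin labelling started from 100 ng of RNA with spiked controls, per the labels' protocols, while the RNA extraction is described in conflicting ways. The values have a floor of 1, which 12 to 24 probe sets reach on an array.

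Log2 was taken without an offset and 115 control probe sets were left out. limma 3.58.1 (R 4.3.3) estimated a mean for each of the 4 groups from the 12 arrays together (8 residual and 2.55 prior degrees of freedom), with two-sided tests adjusted by Benjamini-Hochberg over 15502 probe sets. The number of arrays limits the precision. Gene names come from the platform annotation, with 135 probe sets of several symbols and 4572 of none left unnamed, and 10711 of the named ones found in the current gene table.

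Named were all calls by count, the 25 largest falls and 12 largest rises without overlap, called immediate early genes by example, and per list its calls and up to 3 members of smallest p; 1 of the 25 falls is counted but not reported here. A called or named gene is shown by its probe set of smallest p, and list counts and medians use each gene's brightest. Of 16 called genes with other probe sets, all pointed the same way in 13, the exceptions being fli1, glg1a and mtpn. The comparison, the 36 lists and the naming rule were chosen with earlier results of these data known, and 9 list names that a family pattern caught wrongly were dropped after seeing the data. The deviations of same-numbered loser and winner arrays from their group means had correlations of 0.112, 0.111 and 0.233. Loser and winner arrays of different numbers gave -0.126 to 0.0163. Deviations within a group sum to 0, so these values are tied to the same-numbered ones. Loser array 3 and mirror array 2, of different numbers, gave 0.113. The labels do not say if same-numbered arrays came from the same fight. The main fit is therefore unpaired, and a further fit took the replicate number as a block. On simulated data with 200 changed probe sets the fit recovered 50% of changes of log2 1 and 83% of log2 2, with 4.32% of 139 calls false. The simulated noise was independent between probe sets and arrays, without the shifts of controls and brightness seen in the real arrays. The 4.32% is therefore no estimate of the false share among the real calls.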

Additional observations from a re-analysis of the deposited data

Results flagged for a closer look

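The bacterial hybridization controls stood out because they lie outside the gene measurements and still differed between the groups. Losers minus isolated fish was 0.98 on the log2 scale (10.35 ± 0.32 in losers, 9.37 ± 0.12 in isolated fish, SD, n = 3 each), and the lowest loser array, at 9.992, was above the highest isolated array, at 9.496. The poly-A labelling controls differed in the same direction by 0.42 (7.10 ± 0.13 in losers, 6.68 ± 0.0059 in isolated fish), again without overlap. The exact permutation p was 0.1 for each, the smallest that 20 splits of 6 arrays allow. The median intensity per array was 94.1 to 98.8 in losers and 102.3 to 104.5 in isolated fish, while the median log2 difference was 0.07 in the brightest of 8 brightness classes and 0.16 in the dimmest. The part of these controls in the gene differences was not tested.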

How the results depend on the processing

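For losers minus isolated fish, 317 probe sets were called with 32 added before the logarithm (91 higher, 226 lower), 271 without the dimmest 25% (79 higher, 192 lower), 162 with trend and robust moderation (63 higher, 99 lower), 118 with the probe sets of a gene averaged (41 higher, 77 lower), 71 after quantile normalization (44 higher, 27 lower), 60 after centring on the median (47 higher, 13 lower) and 15 from the loser and isolated arrays alone (14 higher, 1 lower). Centring moved the median of all genes by 0.09, and separation without overlap became 17.7% higher and 9.37% lower. With 1 array left out the calls ranged from 21 to 122, the higher ones from 19 to 49 and the lower ones from 2 to 73. Losers minus winners gave 0 calls in all these settings that hold both groups and 0 to 2 with 1 array left out. Losers minus mirror fighters gave 53, 71, 44 and 35 calls in the first 4 settings, 28 and 27 in the 2 rescalings and 0 to 27 with 1 array left out. The hybridization control level as a covariate left 0 calls in each comparison, with 1379 unadjusted for losers minus isolated fish and 1392 for losers minus mirror fighters, and this level separates the groups. The replicate block gave 75 calls for losers minus isolated fish (33 higher, 42 lower), 14 for losers minus mirror fighters and 0 for losers minus winners (755 unadjusted). Same-numbered loser and isolated arrays had correlations of 0.0277, 0.098 and 0.0987 between their deviations, and those of different numbers -0.0906 to 0.00254. The larger same-numbered values are close to the 0.112 and 0.111 of loser and winner arrays 1 and 2. What the replicate number stands for was not tested. No called gene changed sign. Of 3210 values of called genes and list members of smallest p under an alternative, 10 changed sign, all of genes not called. With the covariate fit set aside, 9 of 28 rises and 0 of 36 falls kept their call throughout. Of 36 list medians 24 kept their sign under both rescalings. Why counts moved was not tested, beyond the fewer probe sets or arrays of some settings. Dim probe sets limit serpina1l, ptpdc1b, carhsp1 and glg1a.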

Other observations

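Some lists for other tissues and programmes held values not described above, and none of their members was called except serpina1l. Over 43 genes of liver and plasma proteins the median was 0.26 in losers, 0.30 in winners and 0.11 in mirror fighters, each against isolated fish. ahsg1, a plasma glycoprotein gene, read 113, 108 and 82.0 on loser arrays and 65.6, 64.5 and 51.5 on isolated arrays (0.73 ± 0.16, adjusted p = 0.0735), while the transferrin gene tfa read 37.3, 55.9 and 31.1 in losers and 98.7, 77.7 and 78.8 in isolated fish (-1.07 ± 0.28, adjusted p = 0.0946). Most liver markers were dim, 7 of the 9 measured, with summed intensities of 191 to 205 in losers and 233 to 262 in isolated fish.

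The 24 retina and pineal genes, 12 of them dim, had a median of 0.20. exorh, the pineal opsin, read 101, 89.7 and 70.1 in losers and 60.2, 54.1 and 59.8 in isolated fish (0.57 ± 0.17, adjusted p = 0.118), and the dim retinoid carrier gene rlbp1a read 12.8, 14.7 and 11.2 in losers and 21.0, 22.0 and 23.4 in isolated fish (-0.79 ± 0.17, adjusted p = 0.0690). Among 22 hypoxia-inducible genes, igfbp1a read 178, 156 and 151 in losers and 107, 89.6 and 89.96 in isolated fish (0.76 ± 0.21, adjusted p = 0.102). In the skeletal muscle list the calcium pump gene atp2a1 read 97.3, 86.8 and 102 in losers and 61.1, 77.0 and 58.5 in isolated fish (0.55 ± 0.14, adjusted p = 0.0874). The 6 pituitary hormone genes overlapped between groups, with pomca at 18.8, 34.7 and 43.2 in losers and 52.3, 41.3 and 39.1 in isolated fish. The myelin gene mbpa read 9524, 9905 and 9054 in losers and 10677, 10813 and 9775 in isolated fish (-0.13, adjusted p = 0.511).

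One-carbon metabolism and its methionine cycle had a median of -0.19 over 21 genes. ahcy, which clears the product of methylation reactions, read 93.7, 117 and 94.97 in losers and 135, 133 and 178 in isolated fish (-0.54 ± 0.18, adjusted p = 0.144), with mirror fighters at 181, 254 and 184.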
